A study of Mus musculus with 6 samples.

Results

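In all, 60 genes of the mitotic spindle, the kinetochore and the mitotic cyclins were followed in haematopoietic stem cells (HSCs) of mice labelled Irgm1-/- and of wild-type mice. The genes were taken from a fixed list of symbols, chosen with earlier results of these data known. Shares of the list beside those of all genes are therefore descriptive. Each gene was read by a single probe set, the one with the highest mean over all 6 arrays among probe sets with exactly 1 gene symbol. A probe set of this kind was found for 59 of the 60 genes, out of 18194 genes so represented on the array. Cyclin B1 (Ccnb1) had none and has no value here. Of the 59, 58 passed the filter on dim probe sets and were tested, and the kinesin gene Kif15 was not.

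The groups were 3 arrays labelled Irgm1-/- (also Lrg-47-/-, the older name of this interferon-induced GTPase) and 3 labelled wild type. All mice were C57BL/6, 8 to 12 weeks old, housed free of specific pathogens and with no treatment named in the labels. Stem cells were sorted from whole bone marrow as the side population of a Hoechst dye, gated further on c-kit, Sca-1 and lineage antibodies, and their RNA was amplified in 2 rounds of T7 transcription before hybridisation. The labels give neither the deleted part of the gene nor whether the arrays of a group came from separate mice or pools, so p-values measure only the spread between these samples, which may be technical. Values are the deposited GCRMA expression values on the log2 scale, on which a difference of 1 is a 2-fold change, and every difference is the knockout label minus wild type.

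Cells enter mitosis when Cdk1, bound to A- and B-type cyclins, is activated by Cdc25 phosphatases. Kinesins and spindle assembly factors then build the spindle, kinetochores attach chromosomes to it, and the checkpoint holds the anaphase-promoting complex (APC/C) inactive until attachment is complete. Most of these genes are transcribed late in the cell cycle, from promoters in which a CHR element and CCAAT boxes recruit the MuvB complexes and NF-Y. Long-term HSCs are known for spending most of their time out of the cycle.

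The promoters were read first, since the listed genes are known for this shared arrangement. In the RefSeq promoter table of assembly GRCm38.p6, 52 of the 60 genes had an entry, with 57 windows of 300 bases that run from 250 bases before to 50 bases after an annotated start. Aurkb, Ccna2, Cdc25c, Foxm1, Kif20a, Smc4, Spc24 and Tpx2 were without an entry. Both strands were searched. The CHR was taken as TTTGAA, which appears as TTCAAA when it lies on the other strand. The variant TTCGAA, which is its own reverse complement, was counted too. The CCAAT box was taken as CCAAT, with ATTGG for the other strand. The 250 bases before the start are printed below in lower case with these motifs in capitals, 5′ to 3′ on the gene's strand. The first 5 genes are the ones with the smallest p among those that rose and hold both motifs before the start. Nusap1, which rose and holds neither, and Cdk1, which holds both and was not called, were added after their values were seen.
Mki67: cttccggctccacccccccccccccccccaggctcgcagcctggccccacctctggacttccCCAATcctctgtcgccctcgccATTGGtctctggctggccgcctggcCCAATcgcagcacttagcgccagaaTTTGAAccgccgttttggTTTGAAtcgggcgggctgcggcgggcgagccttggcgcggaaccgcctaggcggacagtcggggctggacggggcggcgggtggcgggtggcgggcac
Ckap2l: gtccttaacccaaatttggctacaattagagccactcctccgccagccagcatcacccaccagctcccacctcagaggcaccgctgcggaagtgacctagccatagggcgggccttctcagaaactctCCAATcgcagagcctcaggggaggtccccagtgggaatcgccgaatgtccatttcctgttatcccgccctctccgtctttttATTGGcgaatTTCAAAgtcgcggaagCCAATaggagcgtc
Ccnb2: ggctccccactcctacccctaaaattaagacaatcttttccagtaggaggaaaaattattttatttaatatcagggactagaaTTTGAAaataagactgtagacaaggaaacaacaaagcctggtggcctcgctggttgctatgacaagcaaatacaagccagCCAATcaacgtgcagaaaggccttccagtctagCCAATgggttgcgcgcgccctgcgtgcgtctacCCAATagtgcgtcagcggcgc
Ube2c: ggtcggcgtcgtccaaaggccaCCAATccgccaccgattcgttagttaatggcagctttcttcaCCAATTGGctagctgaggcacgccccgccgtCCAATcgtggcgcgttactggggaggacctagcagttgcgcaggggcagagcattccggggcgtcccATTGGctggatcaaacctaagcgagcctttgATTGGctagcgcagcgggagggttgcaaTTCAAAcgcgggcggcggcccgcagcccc
Ncapd2: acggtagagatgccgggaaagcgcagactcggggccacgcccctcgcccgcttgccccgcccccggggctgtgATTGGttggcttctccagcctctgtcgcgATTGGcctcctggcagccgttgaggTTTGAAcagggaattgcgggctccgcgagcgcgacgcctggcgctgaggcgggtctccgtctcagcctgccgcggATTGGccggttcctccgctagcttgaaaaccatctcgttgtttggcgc
Nusap1: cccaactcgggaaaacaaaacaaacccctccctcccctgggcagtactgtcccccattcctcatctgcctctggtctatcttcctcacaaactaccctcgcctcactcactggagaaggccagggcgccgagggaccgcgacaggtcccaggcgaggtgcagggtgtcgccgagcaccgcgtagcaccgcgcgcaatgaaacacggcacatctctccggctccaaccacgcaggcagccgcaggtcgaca
Cdk1: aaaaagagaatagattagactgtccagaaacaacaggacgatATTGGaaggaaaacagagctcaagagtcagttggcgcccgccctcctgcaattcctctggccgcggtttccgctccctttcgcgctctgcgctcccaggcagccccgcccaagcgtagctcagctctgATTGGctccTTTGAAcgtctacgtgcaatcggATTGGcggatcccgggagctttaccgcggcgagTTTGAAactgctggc

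Mki67 (chr7:135716380-135716629, minus strand) held 2 CHR motifs, whose first bases lie 116 and 98 bases before the start, and 3 CCAAT boxes. Ckap2l (chr2:129297213-129297462, minus strand) had a CHR 30 bases before the start, within 10 bases of a CCAAT box 40 bases before it. A further CHR of Ckap2l lies after the start, beyond the printed bases. In Ccnb2 (chr9:70421555-70421804, minus strand) the 3 CCAAT boxes lie 87, 54 and 21 bases before the start. Besides the marked CHR 167 bases before the start, Ccnb2 holds another after it, beyond the printed bases. Ube2c (chr2:164769679-164769928, plus strand) held 6 CCAAT matches, of which a pair, at 186 and 183 bases, overlap on opposite strands. In Ncapd2 (chr6:125191587-125191836, minus strand) the CHR lies 123 bases before the start. The Nusap1 stretch (chr2:119618048-119618297, plus strand) held no match of either motif. Cdk1 (chr10:69352913-69353162, minus strand) had CHR motifs 71 and 15 bases and CCAAT boxes 208, 80 and 48 bases before its start.

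Over all 57 windows of the listed genes, 41 (71.9%) held a CHR, against 19.2% of all 32851 windows in the table and 14.2% of the 10796 windows of genes tested on the arrays. A CCAAT box was found in 43 (75.4%), against 37.4% and 37.3%, and at least 2 in 29 (50.9%), against 11.7% and 14.1%. Both motifs were present in 36 windows (63.2%), 1 of which had overlapping motifs, against 7.52% of all windows and 5.65% of those of tested genes. Among genes that rose on the arrays, 10 of 11 windows held both, the exception being Nusap1, and among tested genes that were not called, 26 of 44 did. The median GC content was 58.7% in the windows of the listed genes and 52.7% in all windows. Windows between the listed genes' lower and upper quartile of GC content, from 53.0% to 64.0%, held a CHR in 13.3% and a CCAAT box in 38.0%. These shares describe letters in a window and carry no test.

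The motifs lay at different distances from the start. In 37 of the 57 windows (64.9%) a CHR lay within 50 bases of the start on either side, against 5.51% of all windows. A CCAAT box lay in the 150 bases before the start in 38 (66.7%), against 24.9% of all windows.

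**Figure D1:**
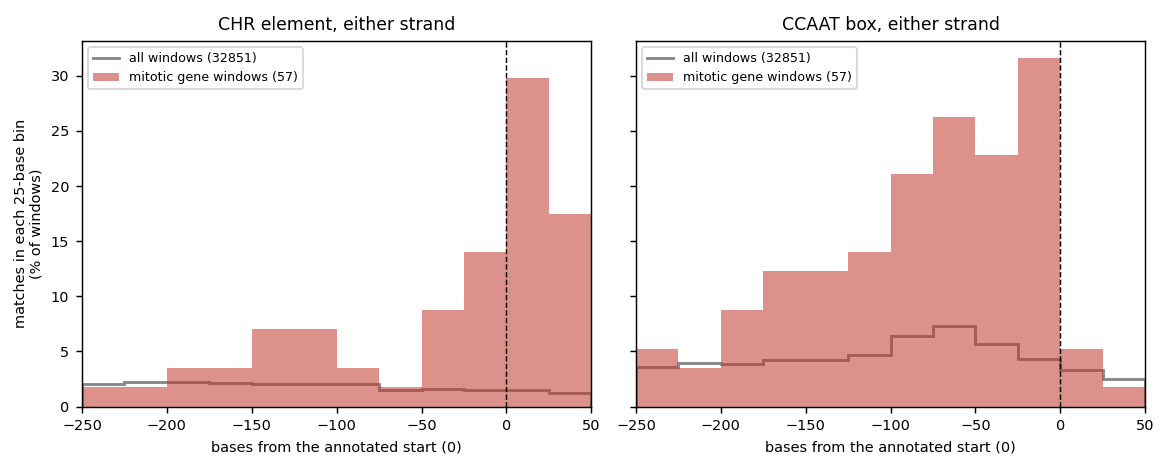
Matches of the CHR (left) and the CCAAT box (right) by distance in bases from the annotated start, as the number of matches in a bin of 25 bases in percent of windows, for the 57 windows of the mitotic genes (filled) and all 32851 windows (line). CHR matches of the mitotic genes were most frequent in the 25 bases after the start (29.8%), and their CCAAT matches lay mostly before it.

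On the arrays, 14 of the 58 tested genes were called higher on the knockout-labelled arrays and 0 lower (limma, Benjamini-Hochberg adjusted p under 0.05 over all probe sets tested). Those that rose were the cyclins Ccna2 and Ccnb2, the kinesins Kif4 and Kif20a, the kinetochore gene Spc24, the checkpoint kinase Bub1, the condensin subunit Ncapd2, the chromosome surface protein Mki67, the ubiquitin pathway genes Ube2c and Cdca3, and the spindle genes Nusap1, Hmmr, Spag5 and Ckap2l. Among all 10372 genes tested by their brightest probe set, 1.08% were called higher and 0.945% lower, and among all 22580 probe sets 0.664% and 0.722%. At an unadjusted limma p under 0.05, 40 of the 58 were higher and 1, Cenpa, was lower, beside 8.51% and 10% of all tested genes. The 3 knockout-labelled arrays lay wholly above the 3 wild-type arrays for 39 of the 59 genes, against 12.8% of all tested genes, and wholly below them for 1, Cenpa, against 12.4%. These shares of all tested genes, for calls, unadjusted p and arrays without overlap, are also those to set beside the counts of each role below. The median difference over the 59 genes was 0.71, with a range of −0.32 to 2.53, whereas the median over all tested genes was 0.003 and its lower and upper deciles were −0.47 and 0.46. The difference was above 0 for 56 of the 59, and above 1 for 24, as it was for 2.24% of all tested genes. Fewer than 14 genes were called when any 1 array was left out. Dependence on a particular array and the smaller number of arrays were not told apart. Without wild-type replicate 2 only Ccna2 was called, without wild-type replicate 1 Ccna2 and Mki67, without knockout-labelled replicate 1 or 2 3 genes each, without wild-type replicate 3 6 genes and without knockout-labelled replicate 3 10 genes, while the median of the 59 stayed between 0.78 and 0.82 in these 6 fits. In RNA of a sorted pool, more cells in mitosis and more of these transcripts per cell cannot be told apart.

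**Figure D2:**
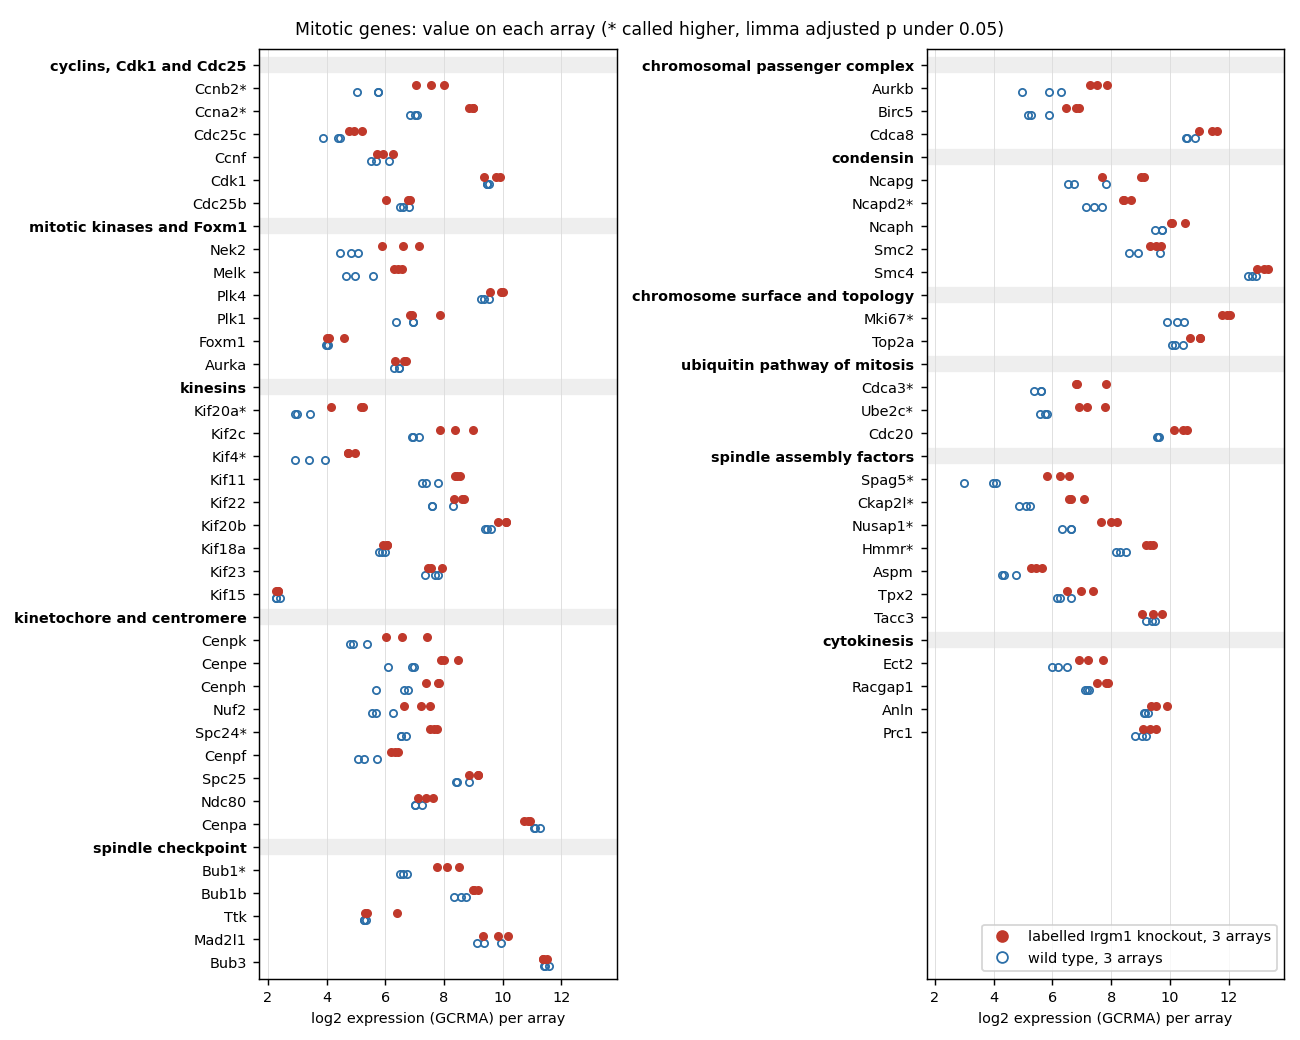
Log2 expression of the 59 genes with a probe set on each knockout-labelled array (filled) and each wild-type array (open), grouped by role and, within a role, ordered by difference; an asterisk marks the 14 genes called higher. The filled points lie wholly to the right of the open ones for 39 genes and wholly to the left for Cenpa.

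Cyclins A2 and B2 rose, while Cdk1, the kinase they bind, was not called. Cyclin A2 (Ccna2), which serves in S phase and G2, read 8.84, 8.98 and 8.98 in the knockout-labelled group (replicates 1, 2 and 3, as in all values below) and 7.03, 6.83 and 7.10 in wild type, a difference of 1.95 (SE 0.16, adjusted p = 0.00347). The groups were far apart against their spread, and Ccna2 was called in all 20 alternative analyses, with an adjusted p of at most 0.0497. A second probe set of Ccna2 was also called (1.82, SE 0.23, adjusted p = 0.0162). Cyclin B2 (Ccnb2) read 8.01, 7.56 and 7.04 against 5.75, 5.76 and 5.04, a difference of 2.02 (SE 0.31, adjusted p = 0.0325). Its lowest knockout-labelled array, replicate 3, was still above every wild-type array. Cdk1 itself read 9.79, 9.90 and 9.35 against 9.48, 9.48 and 9.55 (0.18, SE 0.18, adjusted p = 0.667), and its groups overlapped.

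The other members of this group were not called. Cdc25c, which encodes an activating phosphatase of Cdk1, had a difference of 0.71 (SE 0.20, adjusted p = 0.158) without overlap. Cyclin F (Ccnf), a substrate receptor of an SCF ubiquitin ligase, differed by 0.21 (SE 0.23). The related phosphatase gene Cdc25b had the smallest difference, with 6.03, 6.79 and 6.85 against 6.81, 6.60 and 6.51 (−0.09, SE 0.26, adjusted p = 0.902). Knockout-labelled replicate 1 was the low array, and without it the difference of Cdc25b was 0.18. Over the 6 genes of the group with a probe set, 2 rose, 0 fell and the median difference was 0.46.

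Of the 5 mitotic kinases and the transcription factor Foxm1, a driver of late cell cycle genes, limma called 0. At an unadjusted limma p under 0.05, 3 were higher and 0 lower, beside 8.51% and 10% of all tested genes. Nek2, a kinase that separates the centrosomes, had the largest difference, with 7.15, 6.61 and 5.89 against 4.46, 5.09 and 4.82 (1.76, SE 0.33, adjusted p = 0.0554). Its groups did not overlap, and the spread of 0.63 (SD, n = 3) among the knockout-labelled arrays was among the wider ones of the list. Melk read 6.58, 6.44 and 6.29 against 4.65, 4.97 and 5.60 (1.36, SE 0.26, adjusted p = 0.0571). Plk4, which starts centriole duplication, differed by 0.45 (SE 0.17, adjusted p = 0.262) and Plk1, a kinase of mitotic entry, by 0.45 (SE 0.32, adjusted p = 0.538). The value of Plk1 came mainly from knockout-labelled replicate 3, at 7.87 against 6.83 and 6.91 on the other knockout-labelled arrays. Aurka, the kinase of spindle poles, had the smallest difference of the group, with 6.32, 6.72 and 6.65 against 6.48, 6.30 and 6.47 (0.14, SE 0.18, adjusted p = 0.746). Foxm1 lay low on all arrays, at 4.58, 4.07 and 4.03 against 4.01, 4.04 and 3.98 (0.22, SE 0.16, adjusted p = 0.552). The median difference of these 6 genes was 0.45.

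Among the kinesins, the motor proteins of the spindle, 2 of 8 tested rose and 0 fell. Kif20a, which carries the chromosomal passenger complex to the midzone, was at 5.17, 5.24 and 4.17 against 2.91, 3.00 and 3.45 (1.74, SE 0.30, adjusted p = 0.0448). It passed the filter on dim probe sets through the knockout-labelled arrays alone, so its call is not independent of that filter. The chromosome-bound kinesin Kif4 read 4.72, 4.73 and 4.98 against 3.39, 2.93 and 3.94 (1.39, SE 0.24, adjusted p = 0.0458). Both were dim, as array medians lay between 3.67 and 3.73. Neither was called with a filter at the 25th percentile or with no filter. That loss was not particular to dim genes, as only Ccna2, Mki67, Spag5 and Ckap2l of the 14 kept their call in these 2 settings. Kif2c, a microtubule depolymerase, had a difference as large as that of Kif4 with a wider spread, at 9.0, 7.86 and 8.37 against 6.95, 6.91 and 7.16 (1.40, SE 0.29, adjusted p = 0.0748).

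Kif11, the motor that pushes spindle poles apart, differed by 0.96 (SE 0.19, adjusted p = 0.0681) and Kif22, a motor of chromosome arms, by 0.71 (SE 0.24, adjusted p = 0.217), both without overlap. Kif20b, which acts in cytokinesis, also stood apart without overlap (0.52, SE 0.15, adjusted p = 0.155). Kif18a, which dampens chromosome oscillation, differed by 0.11 (SE 0.16). The smallest tested difference was that of Kif23, a subunit of centralspindlin, with 7.92, 7.57 and 7.46 against 7.70, 7.79 and 7.34 (0.04, SE 0.21, adjusted p = 0.945). Kif15 lay between 2.27 and 2.40 on all 6 arrays, at or below the highest bacterial control of each array (3.00 to 3.18), and its groups overlapped. The median over all 9 kinesins was 0.71.

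At the kinetochore and centromere, 1 of 9 genes rose, 0 fell and 6 of 9 lay without overlap above wild type, against 12.8% of all tested genes. The 4 genes of the NDC80 complex, which binds microtubules end on, had unlike differences. Spc24 rose, with 7.78, 7.65 and 7.54 against 6.54, 6.70 and 6.55 (1.06, SE 0.17, adjusted p = 0.0342). Nuf2 differed by 1.30 (SE 0.29, adjusted p = 0.0915), Spc25 by 0.48 (SE 0.19, adjusted p = 0.268) and Ndc80 by 0.29 (SE 0.20, adjusted p = 0.508). Whether these 4 differ from each other was not tested. The groups of Ndc80 and of Spc25 overlapped or touched, whereas those of Spc24 and Nuf2 did not.

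The largest difference at the kinetochore belonged to Cenpk, a subunit of the inner centromere network, at 7.41, 6.02 and 6.58 against 4.91, 5.38 and 4.80 (1.64, SE 0.35, adjusted p = 0.0865). Its chosen probe set was not called, but another of its probe sets was (1.68, SE 0.26, adjusted p = 0.0337). Cenph, its partner in that network, differed by 1.31 (SE 0.31, adjusted p = 0.107). The kinetochore motor Cenpe was at 8.49, 7.90 and 8.01 against 6.98, 6.93 and 6.08 (1.47, SE 0.29, adjusted p = 0.0681), and Cenpf, a large outer kinetochore protein, differed by 0.95 (SE 0.21, adjusted p = 0.086). Neither overlapped. By the chosen probe sets, Cenpa, the histone H3 variant that marks the centromere, was the single gene with all knockout-labelled arrays below wild type. It was at 10.92, 10.85 and 10.72 against 11.08, 11.28 and 11.09 (−0.32, SE 0.13, adjusted p = 0.273). Its difference did not pass the test, and its other tested probe set had the opposite sign (0.23, SE 0.29, adjusted p = 0.749).

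Of the 5 spindle checkpoint genes 1 rose and 0 fell. Bub1, the kinase that recruits checkpoint proteins to kinetochores, was at 8.50, 8.09 and 7.77 against 6.75, 6.50 and 6.59 (1.51, SE 0.22, adjusted p = 0.0305). Bub1b, which encodes the APC/C inhibitor BubR1, differed by 0.51 (SE 0.17, adjusted p = 0.204) without overlap. Mad2l1, which binds and holds Cdc20, differed by 0.29 (SE 0.28) and its groups overlapped. Ttk, the kinase that starts checkpoint signalling, was at 6.40, 5.37 and 5.32 against 5.27, 5.35 and 5.28 (0.40, SE 0.29, adjusted p = 0.546). By this probe set only knockout-labelled replicate 1 was high for Ttk. Without that array the median difference of the 5 checkpoint genes, by their chosen probe sets, was 0.087 in place of 0.40. The other tested probe set of Ttk did not overlap and was not called. It was at 6.02, 5.25 and 5.61 against 4.62, 4.57 and 4.86 (0.95, SE 0.22, adjusted p = 0.101). Bub3, a partner of Bub1 that is needed beyond mitosis too, was at 11.37, 11.38 and 11.52 against 11.44, 11.42 and 11.58 (−0.06, SE 0.11, adjusted p = 0.844), the smallest difference of the group. Another tested probe set of Bub3 lay wholly below wild type, at 6.83, 6.78 and 7.42 against 7.49, 7.64 and 7.88 (−0.66, SE 0.23, adjusted p = 0.227). A further one was at 0.06 (SE 0.17).

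All 3 genes of the chromosomal passenger complex, which corrects faulty attachments, lay above wild type on every knockout-labelled array, against 12.8% of all tested genes. Limma called 0, and all 3 were higher at an unadjusted p under 0.05, beside 8.51% of all tested genes. Its kinase Aurkb had 7.86, 7.53 and 7.27 against 4.98, 5.87 and 6.30 (1.84, SE 0.35, adjusted p = 0.0563). The wild-type arrays of Aurkb were widely spread, and a second probe set with a smaller error was called (1.23, SE 0.22, adjusted p = 0.0486). Survivin (Birc5), which brings the complex to the centromere, differed by 1.27 (SE 0.24, adjusted p = 0.0593). Borealin (Cdca8) had the smallest difference, at 11.60, 10.98 and 11.45 against 10.59, 10.54 and 10.87 (0.68, SE 0.19, adjusted p = 0.152). Both of its other tested probe sets were called higher, with differences of 1.16 (SE 0.17, adjusted p = 0.0313) and 1.07 (SE 0.13, adjusted p = 0.0155).

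In the condensin complex, which compacts chromosomes, 1 of 5 genes rose and 0 fell. The subunit Ncapd2 was at 8.42, 8.43 and 8.67 against 7.68, 7.41 and 7.16 (1.09, SE 0.19, adjusted p = 0.0476). Ncapg, another regulatory subunit, had the largest difference and was not called, at 9.13, 9.02 and 7.70 against 6.53, 6.73 and 7.83 (1.59, SE 0.47, adjusted p = 0.173). Knockout-labelled replicate 3 and wild-type replicate 3 met for Ncapg, whereas its other tested probe set was called (2.14, SE 0.22, adjusted p = 0.00855). Ncaph, the subunit that bridges the ATPase heads, differed by 0.56 (SE 0.17, adjusted p = 0.185). The ATPase subunits Smc2 and Smc4 had the smallest differences, and Smc4 was at 13.20, 13.35 and 12.97 against 12.66, 12.79 and 12.93 (0.38, SE 0.13, adjusted p = 0.217). Smc4 did not overlap, by a narrow margin, and Smc2 did (0.44, SE 0.27, adjusted p = 0.475).

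On the chromosome surface, Mki67, which keeps mitotic chromosomes apart and is the usual marker of cycling cells, rose. Its values were 12.06, 11.95 and 11.79 against 10.49, 10.23 and 9.90, a difference of 1.73 (SE 0.17, adjusted p = 0.00783). Mki67 was called in 19 of the 20 alternative analyses and lost the call without wild-type replicate 2 (adjusted p = 0.0707). Topoisomerase II alpha (Top2a), which untangles sister chromatids, was at 11.03, 11.03 and 10.68 against 10.17, 10.07 and 10.45 (0.68, SE 0.16, adjusted p = 0.112). Its groups were apart but it was not called.

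Of 3 genes of the mitotic ubiquitin pathway 2 rose. Ube2c, the ubiquitin-conjugating enzyme of the APC/C, was at 7.78, 7.17 and 6.89 against 5.76, 5.56 and 5.81 (1.57, SE 0.25, adjusted p = 0.0361). Cdca3, a trigger of mitotic entry that is itself degraded through the APC/C, had 7.82, 6.82 and 6.84 against 5.60, 5.62 and 5.38 (1.63, SE 0.29, adjusted p = 0.0484). Both were highest on knockout-labelled replicate 1 and did not overlap with wild type. Cdc20, the activator of the APC/C that the checkpoint holds, was at 10.58, 10.44 and 10.15 against 9.55, 9.60 and 9.63 (0.80, SE 0.15, adjusted p = 0.0587), and was not called.

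Spindle assembly factors held 4 of the 14 calls, among 7 genes. Spag5 (astrin), which guards spindle poles and kinetochore fibres, had the largest difference of all listed genes by the chosen probe sets, at 6.56, 5.82 and 6.25 against 3.96, 4.09 and 2.99 (2.53, SE 0.32, adjusted p = 0.0176). Wild-type replicate 3 of Spag5 lay below the highest bacterial control of its array, and its other tested probe set gave a smaller difference that was not called (0.98, SE 0.18, adjusted p = 0.0557). Ckap2l, a protein of spindle poles, was at 6.58, 6.64 and 7.08 against 5.10, 4.86 and 5.24 (1.70, SE 0.20, adjusted p = 0.0136). Unlike most called genes, Ckap2l was highest on knockout-labelled replicate 3. Nusap1, which bundles microtubules near chromosomes, had 8.00, 8.19 and 7.64 against 6.63, 6.34 and 6.63 (1.41, SE 0.21, adjusted p = 0.0289). Hmmr, a spindle protein also known as a hyaluronan receptor, was at 9.43, 9.20 and 9.31 against 8.30, 8.16 and 8.52 (0.98, SE 0.16, adjusted p = 0.0404). Of the other tested probe sets of Hmmr, 1 was called with a difference of 0.98 and 1 had the opposite sign (−0.16, SE 0.20).

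The remaining spindle factors were not called. Aspm, which focuses spindle poles, missed the threshold narrowly (0.98, SE 0.18, adjusted p = 0.0507), with no overlap between its groups. Tpx2, the activator of Aurora A, differed by 0.60 (SE 0.27, adjusted p = 0.316). Tacc3, which stabilises kinetochore fibres, had the smallest difference, at 9.06, 9.42 and 9.75 against 9.40, 9.48 and 9.19 (0.05, SE 0.20, adjusted p = 0.927), and its groups overlapped. In cytokinesis, limma called 0 of 4 genes, and 2 were higher at an unadjusted p under 0.05, beside 8.51% of all tested genes. Ect2, the exchange factor that activates RhoA at the cell equator, had the largest difference, at 7.73, 7.22 and 6.90 against 6.00, 6.20 and 6.49 (1.05, SE 0.26, adjusted p = 0.116), and Racgap1, its partner in centralspindlin, differed by 0.56 (SE 0.18, adjusted p = 0.196). Anillin (Anln), a scaffold of the contractile ring, differed by 0.40 (SE 0.17, adjusted p = 0.309), while its other tested probe set was at −0.84 (SE 0.16, adjusted p = 0.0605). The midzone bundler Prc1 was lowest of the 4, at 9.10, 9.52 and 9.32 against 9.06, 9.19 and 8.81 (0.29, SE 0.18, adjusted p = 0.464).

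**Figure D3:**
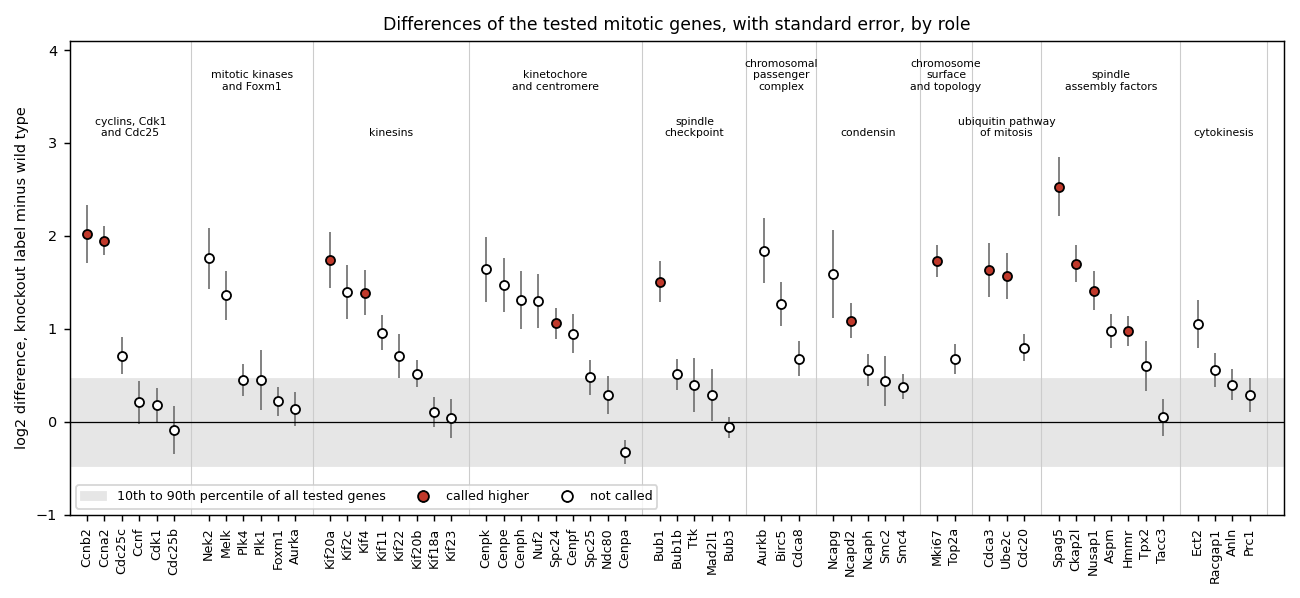
Log2 difference of the 58 tested genes with its standard error, by role; filled points mark the 14 genes called higher, and the grey band spans the range from the lower to the upper decile of all tested genes (−0.47 to 0.46). Most points lie above the band, the highest being Spag5 at 2.53, and no gene lies below it.

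Set side by side without a test, the roles had medians from 0.40 to 1.57. The medians were 1.57 for the 3 ubiquitin pathway genes, 1.27 for the 3 passenger complex genes and 1.20 for Mki67 and Top2a. This order depends on the probe set, as the mean of all probe sets of a gene gave 0.56 for the ubiquitin pathway, 1.27 for the passenger complex and 1.06 for Mki67 and Top2a. Kinetochore genes (1.06) and spindle assembly factors (0.98) followed. Kinesins (0.71), condensin (0.56), cytokinesis (0.48), cyclins with Cdk1 and Cdc25 (0.46), kinases with Foxm1 (0.45) and the checkpoint (0.40) were lower. Within every role but the first 3, the range ran from below 0.40 to above 1, so single genes spread more than the medians did. A further 12 of the 44 genes not called had an adjusted p between 0.05 and 0.10.

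Probe sets of the same gene mostly pointed the same way. Of 35 listed genes with another tested probe set, 30 had all of them on the same side of 0 as the chosen one, and Cenpa, Bub3, Hmmr, Tacc3 and Anln did not. Of the 44 genes not called, 4 (Cenpk, Aurkb, Cdca8 and Ncapg) had another probe set called higher. Of the 6 called genes with another tested probe set, 2 (Ccna2 and Hmmr) had one called too. The other probe sets of Bub1 (0.64, adjusted p = 0.193), Ncapd2 (0.63, adjusted p = 0.272), Spag5 (given above) and Ckap2l (1.23, adjusted p = 0.0847) had smaller differences and were not called. With the mean of all probe sets of a gene as its value, 22 genes were called, and the median of all listed genes was 0.57.

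Other genes of mitosis, taken from 7 lists that exclude the genes above, gave lower shares. The lists also hold Kif1b, Kif3a and Kif3b, kinesins known mainly for transport. Of 126 listed, 124 had a probe set and 114 were tested, of which 7 rose and 0 fell, beside 1.08% and 0.945% of all tested genes. At an unadjusted limma p under 0.05, 33 were higher and 4 lower, beside 8.51% and 10% of all tested genes. Their median difference was 0.14. The knockout-labelled arrays lay wholly above wild type for 39 of the 124 and wholly below for 6, against 12.8% and 12.4% of all tested genes. The 39 include Cenpm and Sgo2a, which were too dim to be tested.

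Of 28 other kinetochore and centromere genes 2 rose, the inner centromere gene Cenpu (1.18, SE 0.17, adjusted p = 0.0299) and Kntc1, which encodes the Rod subunit that brings dynein to kinetochores (1.22, SE 0.21, adjusted p = 0.0454). Next were Zwilch, of the same complex (1.18, adjusted p = 0.06), and Cenpi (1.10, adjusted p = 0.0623). Their list had a median of 0.13. Of 32 spindle, centrosome and cytokinesis genes 2 rose, Psrc1 (1.68, SE 0.21, adjusted p = 0.0155) and the centriole assembly gene Stil (1.55, SE 0.27, adjusted p = 0.0454), with Tubg1, the gamma-tubulin gene (0.96, adjusted p = 0.0664), and the abscission gene Cep55 (1.58, adjusted p = 0.0726) next and a median of 0.30. Condensin II and cohesin loading had 1 call in 5, Ncapg2 (1.33, SE 0.18, adjusted p = 0.025), beside Ncapd3 (0.57, adjusted p = 0.108), Ncaph2 (0.37, adjusted p = 0.373) and Mau2 (0.24, adjusted p = 0.699). Here the condensin II subunits had positive differences, as did all 5 condensin genes above.

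The APC/C list had 1 call among 17, its inhibitor Fbxo5 (1.12, SE 0.19, adjusted p = 0.0453), and a median of 0.05. Its subunits Anapc15 (0.85, adjusted p = 0.144) and Cdc26 (0.35, adjusted p = 0.441) and the conjugating enzyme Ube2s (0.32, adjusted p = 0.514) were not called. The list's median was thus close to that of all tested genes. Among 21 regulators of Cdk1 and of mitotic entry and exit 1 rose, the mitotic kinase Pbk (1.32, SE 0.21, adjusted p = 0.0342), whereas Ccnh (0.63, adjusted p = 0.0938), Cdca2 (0.94, adjusted p = 0.126) and the phosphatase Cdc14b (−0.77, adjusted p = 0.117) were not called. Other kinesins had 0 limma calls among 5 (1 higher at an unadjusted p under 0.05) and a median of −0.24. That list mixes mitotic kinesins with Kif3b (−0.47, adjusted p = 0.446), Kif3a (−0.25) and Kif1b (−0.27), known mainly for transport. Its mitotic kinesins were Kif18b at 0.55 (adjusted p = 0.0816), Kifc1 at −0.22 and Kif14, too dim to be tested, at 0.30. The MuvB list, whose complex binds the CHR, had 0 limma calls among 6 (1 higher at an unadjusted p under 0.05) and a median of 0.25, with Mybl2, the B-Myb gene, at 0.45 (adjusted p = 0.156), Lin54, its CHR-binding subunit, at 0.38 (adjusted p = 0.442), Lin37 at 0.28 and Lin9 at 0.21.

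Separase and securin stood in none of these lists and were added after their values were seen. Espl1, which encodes the separase that cuts cohesin, rose, at 5.88, 5.99 and 6.32 against 4.46, 4.51 and 4.82 (1.47, SE 0.18, adjusted p = 0.0162). Pttg1, which encodes its inhibitor securin, fell, at 11.26, 11.02 and 11.46 against 12.51, 12.20 and 12.68 (−1.22, SE 0.17, adjusted p = 0.0251). They went in opposite directions with no overlap in either.

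**Figure D4:**
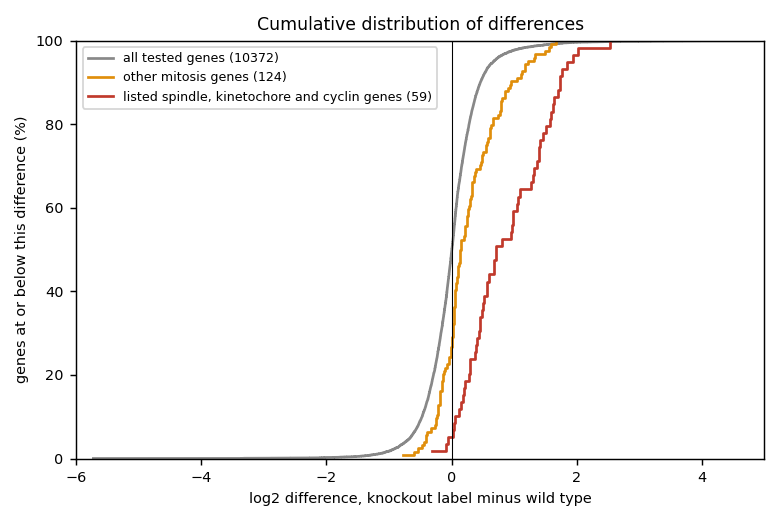
Cumulative share of genes (vertical axis, percent) at or below a log2 difference (horizontal axis) for the 59 listed spindle, kinetochore and cyclin genes, the 124 other mitosis genes and all 10372 tested genes; the first 2 curves include genes that were too dim to be tested. The curve of the listed genes crosses 50% at 0.71, that of the other mitosis genes at 0.14 and that of all tested genes at 0.003.

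The 6 arrays had medians between 3.67 and 3.73, and the gap between 3' and 5' actin controls was 2.81 to 3.56 on knockout-labelled and 2.57 to 3.16 on wild-type arrays. Irgm1 was at 7.68, 8.58 and 7.84 against 8.39, 8.57 and 8.36 (−0.41, SE 0.25, adjusted p = 0.475), and since the deleted part is not given, its probe set checks nothing about the genotype. The median deviation of the 59 genes from their wild-type means was 0.93, 0.85 and 0.67 on knockout-labelled replicates 1, 2 and 3, and −0.04, −0.03 and 0.05 on the wild-type replicates. Knockout-labelled replicate 3 was the lowest of its group for 35 of the 59 genes, and replicate 1 the highest for 33. All 3 knockout-labelled arrays thus stood above the wild-type arrays over the list as a whole.

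Several T and NK cell genes also stood higher on the knockout-labelled arrays. Of 26 listed, 24 had a probe set and 12 were tested, of which 5 rose and 0 fell, beside 1.08% and 0.945% of all tested genes. Wholly above wild type lay 14 of the 24, against 12.8% of all tested genes. The 14 include Cd3d, Cd3g, Gzma, Il2rb, Eomes and Tbx21, which were too dim to be tested, so the sets compared are unlike. The gap to wild type was only 0.01 for Eomes, 0.02 for Cd3e and 0.05 for Il2rb. The chemokine gene Ccl5 had the largest difference, at 12.81, 12.77 and 13.52 against 8.69, 7.33 and 8.29 (4.93, SE 0.36, adjusted p = 0.00207), and the signalling adaptor Lat the lowest (−0.21, SE 0.32). The summed linear level of the 24 markers came to 10439, 9684 and 20830 in the knockout-labelled group against 1132, 737 and 1194 in wild type. Such a sum leans on the brightest marker, which was Ccl5 on all 3 knockout-labelled arrays, and does not measure a share of cells. The median deviation of the 24 markers was 0.20, 0.15 and 1.77. By this median knockout-labelled replicate 3 stood apart, and its CD3 genes were the highest (Cd3g at 4.15, 3.32 and 7.06, Cd3d at 4.56, 3.45 and 6.91). Cd4, Cd8b1, Zap70, Ncr1, Prf1 and Tbx21 were at or below the bacterial controls on all arrays. The 5 markers that rose stood above wild type on all 3 knockout-labelled arrays. Gzmb, for example, was at 6.83, 6.48 and 8.26 against 3.87, 3.00 and 3.64. A call by the test favours genes of this kind, so the 5 do not speak for the list. Cd8a, which was not called, was high on replicate 3 alone, at 3.74, 3.81 and 6.21 against 3.76, 3.71 and 3.66. The part of T and NK cells in the mitotic differences was not tested.

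Stem cell markers were present in both groups. Of 12 surface and side population genes 10 had a probe set and were tested. Limma called 0, with 1 higher and 5 lower at an unadjusted p under 0.05, beside 8.51% and 10% of all tested genes. The median difference was −0.35, with 5 genes wholly below wild type, against 12.4% of all tested genes. The endothelial protein C receptor gene Procr was at 12.92, 13.16 and 12.95 against 13.23, 13.56 and 13.36, and Abcg2, the pump behind the side population, at 11.14, 11.67 and 11.30 against 11.51, 11.85 and 11.71. The extremes of the list were Slamf1 (1.43, SE 0.39, adjusted p = 0.145) and Gata2 (−0.83, SE 0.17, adjusted p = 0.0664). Ly6a, which encodes Sca-1, had no probe set with 1 symbol. The list's summed linear level was 23270 to 26289 on knockout-labelled and 29697 to 33581 on wild-type arrays.

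Markers of committed progenitors, which cycle more than stem cells, did not pass the test. Of 18 listed, 15 had a probe set, 8 were tested and limma called 0. At an unadjusted limma p under 0.05, 1 was higher and 1 lower, beside 8.51% and 10% of all tested genes. The median difference was 0.14, with 3 of the 15 wholly above wild type and 1 wholly below, against 12.8% and 12.4% of all tested genes. The 3 include Gata1, which was too dim to be tested. Their summed linear level was 2119 to 2457 on knockout-labelled and 1531 to 2492 on wild-type arrays, so the groups overlapped. Elane, Ctsg, Klf1, Car1 and Rag1 were at or below the bacterial controls on all arrays. The extremes were Cd48, a surface protein of later progenitors (1.93, SE 0.44, adjusted p = 0.101), and Flt3, the receptor of multipotent progenitors (−1.23, SE 0.27, adjusted p = 0.0915). Of the 8 B cell markers with a probe set 2 were tested and 0 called by limma, also at an unadjusted p under 0.05, and Cd79a, Pax5 and Vpreb1 were at or below the bacterial controls. Whether the share of progenitors takes part in the mitotic differences was not tested.

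**Figure D5:**
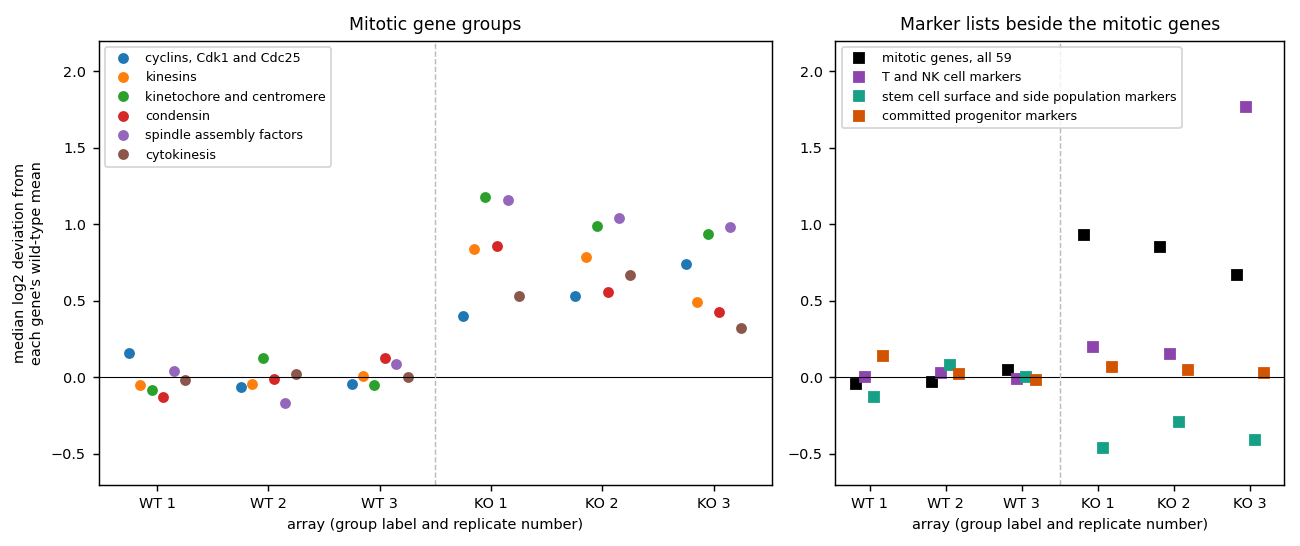
Median log2 deviation from each gene's wild-type mean on each array, for 6 roles of the mitotic genes (left) and for all 59 mitotic genes beside marker lists (right). The mitotic genes lie at 0.67 to 0.93 on all 3 knockout-labelled arrays. There the medians of the T and NK cell markers are 0.20, 0.15 and 1.77, and those of stem cell markers lie below 0.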

How the data were processed

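RNA of sorted stem cells was measured on 6 Affymetrix arrays with 45101 probe sets, 3 per group. The authors deposited expression values on what their range shows to be a log2 scale. Per the submitters' processing notes these came from GCRMA, a method that removes probe background by base composition, scales the arrays to each other and combines the probes of a set. It holds unexpressed probe sets in a narrow band of low values. Its version and options are not given in the sources. Gene names came from the platform's annotation (34958 probe sets with 1 symbol, 932 with several, 9211 with none).

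The 2 groups were compared by limma 3.58.1 (R 4.3.3; lmFit and eBayes with an intensity trend, no covariate, 2-sided), on the deposited values as they stood. Tests covered the 22580 probe sets, Affymetrix controls aside, that exceeded the array median on at least 3 of 6 arrays. P-values were adjusted over these by Benjamini and Hochberg, with a threshold of 0.05. The code of the fit was checked on simulated independent noise with planted differences, which says nothing of how the real replicates were made. Medians of lists cover every gene with a probe set, tested or not, and carry no test.

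The genes and lists were chosen with earlier results of these data known. Values on each array are given for every listed gene past the threshold and for the largest and smallest tested difference in each role. Up to 4 genes of smallest p from each list of other mitosis genes are given by their difference alone. The extremes of the T and NK, stem cell and progenitor lists are too, apart from Ccl5. The alternatives were other filters, normalisations, variance models, thresholds, array weights and choices of probe set, a replicate block and leaving out each array. Precision is limited by 3 arrays a group.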

Additional observations from a re-analysis of the deposited data

How the results depend on the processing

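The count of 14 genes called higher moved with the analysis. It was 4 when dim probe sets were kept, 4 with a filter at the 25th percentile, 29 with array weights, 22 with the mean of all probe sets of a gene, 26 at an adjusted p under 0.10 and 2 under 0.01. With a replicate block it was 3 (Ccna2, Ccnb2 and Mki67). The labels name no pairing of same-numbered arrays. Deviations of same-numbered arrays had correlations of −0.109, −0.0179 and −0.276, and those of differently numbered arrays ranged from −0.2 to 0.239. With 3 arrays a group, these values cannot decide whether the samples were paired. Leaving out 1 array gave 1 to 10. The count of genes called lower was 0 in all 20 alternatives.

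The median of the 59 genes was 0.57 with the mean of all probe sets and 0.95 with the probe set of largest SD. With the mean, the medians were 0.61 for cyclins with Cdk1 and Cdc25, 1.06 for Mki67 and Top2a, 0.56 for the ubiquitin pathway, 0.65 for spindle assembly and 0.28 for cytokinesis. With the largest SD they were 0.79 for cyclins, 0.96 for kinesins, 0.76 for the checkpoint and 1.24 for spindle assembly. With 1 array left out, the medians ranged from 0.087 to 0.54 for the checkpoint, 0.59 to 0.91 for kinesins and 0.90 to 1.12 for spindle assembly.

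Signs reversed for 5 genes that were not called. Kif23 was at −0.035 and Tacc3 at −0.057 with array weights. With 1 array left out, Cdc25b ranged from −0.23 to 0.18, Kif23 from −0.095 to 0.13 and Tacc3 from −0.12 to 0.23. Anln was at −0.22 with the mean of all probe sets and −0.84 with the largest SD, which also put Cenpa at 0.23. Over all listed genes and alternatives, 963 values kept direction and side of the threshold, 47 passed it newly, 112 lost it and 10 reversed. The causes were not tested, apart from fewer arrays or probe sets where these were left out.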
